A study of Mus with 3 samples.

Results

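The cells described here are CD4 T cells of MC38 tumors that held RNA for Tcf7 or S1pr1 and little or none for Foxp3 and for the activation-linked TNF family ligands Tnfsf8 and Tnfsf11. A cell barcode was a member when it had 500 or more gene UMIs (unique molecular identifiers, which count captured RNA molecules) and a T cell receptor clonotype, and when its UMIs were 1 or more for Cd4, 0 for Cd8a, Cd8b1 and Foxp3, at most 1 for Tnfsf8 and Tnfsf11 together and 1 or more for Tcf7 and S1pr1 together. The members were thus chosen by the measured UMIs of these 8 genes, whose levels are given as a description. Where 3 values are given for a group without naming genotypes, they are in the order WT, RARα-KO, RARα-TG. Of 717 CD4 T cells in the data, 362 held no Foxp3 UMI, and 90 of these met the rule. The other 272 are called the other Foxp3-negative CD4 T cells below, and the 355 CD4 T cells with a Foxp3 UMI are called Foxp3-positive.

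The study implanted MC38, a mouse colon adenocarcinoma line, into mice of 3 genotypes and took the tumors on day 16. WT is the control, for which the labels name C57BL/6 and dLck-Cre mice without saying which gave this tumor. RARα-KO is dLck-Cre × Rara L/L, in which a Cre driven by the distal Lck promoter deletes part of Rara in T cells, and RARα-TG is CD2-Rara, which carries a Rara transgene under the CD2 promoter. Sorted CD45.2+CD3+ cells (30000 per genotype) were mixed with 10000 total tumor cells, marked by a hashtag antibody per genotype and pooled into 1 droplet 5′ gene expression library with its receptor library. The number of mice per genotype is not given in the sources used here, so each genotype is 1 sample. No test between genotypes is possible, and every interval below is a 95% counting interval (exact binomial for a share, Poisson for a level or a ratio) that covers counting error only. Of the members, 23 were WT, 30 RARα-KO and 35 RARα-TG, and 2 had no clear hashtag. Some labels of the series name spleen, naive CD8 T cells and an activation treatment, which do not match the tumor protocol of the same labels. The protocol was followed here. Beside the CD4 T cells, 2023 CD8 T cells and 282 barcodes with myeloid genes were found.

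CD4 T cells that have not recently met antigen keep a quiescent program. The transcription factor TCF-1, encoded by Tcf7, maintains naive, memory and stem-like T cells. Another factor, KLF2, drives transcription of S1pr1, the receptor that senses sphingosine 1-phosphate and lets T cells leave tissue. Antigen receptor signals shut this program down, raise glycolysis and bring in effector cytokines and TNF family ligands. In a tumor, CD4 T cells with the quiescent program can be recent arrivals, memory cells or cells that see other antigens, and their receptor sequences tell which of them belong to an expanded clone.

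For each genotype, the 3 clonotypes with most members among those of 2 or more cells are shown by their receptor sequences. Only 4 of 84 member clonotypes held 2 or more members, so ties were broken by the number of cells in the clonotype. This choice favoured clones with cells outside the rule. The CDR3 nucleotide sequences below were read from the receptor library in the direction 5′ to 3′. Capitals mark the bases between a common start of chains of the same V gene and a common end of chains of the same J gene. Each stretch was extended inward while 80% or more of the chains that matched it so far shared the next base. Capitals can thus include bases encoded by the V or J gene. The sequences are shown because they define the clones that tie members to their relatives outside the rule. In WT, clonotype 227 held 2 members and no other cell. Clonotype 41, with 14 cells, held 1 member, 7 cells with 2 or more Tnfsf8 and Tnfsf11 UMIs and 6 cells with fewer. Clonotype 62, with 8 cells, held 1 member, 5 cells of the former kind and 2 of the latter.
Clonotype 227, TRAV7D-2 TRAJ12: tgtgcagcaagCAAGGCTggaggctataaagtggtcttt
Clonotype 227, TRBV13-3 TRBJ2-5: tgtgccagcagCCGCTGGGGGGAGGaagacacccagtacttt
Clonotype 41, TRAV19 TRAJ57: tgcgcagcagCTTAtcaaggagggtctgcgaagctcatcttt
Clonotype 41, TRBV12-2 TRBJ2-3: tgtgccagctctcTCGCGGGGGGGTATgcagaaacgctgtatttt
Clonotype 62, TRAV10D TRAJ37: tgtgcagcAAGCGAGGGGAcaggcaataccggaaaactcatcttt
Clonotype 62, TRBV5 TRBJ1-3: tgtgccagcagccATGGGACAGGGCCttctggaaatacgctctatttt

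In RARα-KO, each of the 3 clonotypes shown spread over cells inside and outside the rule, which the choice by clonotype size favoured. Clonotype 37 had 16 cells, of which 2 were members, 4 had 2 or more Tnfsf8 and Tnfsf11 UMIs, 8 had fewer and 2 fell into no CD4 class. Clonotype 48 had 12 cells, placed as 1, 6, 4 and 1 in the same order. Clonotype 69 had 8 cells, placed as 1, 3, 1 and 3.
Clonotype 37, TRAV14N-3 TRAJ22: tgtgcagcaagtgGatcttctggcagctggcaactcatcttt
Clonotype 37, TRBV10 TRBJ2-1: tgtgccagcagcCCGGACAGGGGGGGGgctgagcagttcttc
Clonotype 48, TRAV9D-2 TRAJ13: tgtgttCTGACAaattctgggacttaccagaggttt
Clonotype 48, TRBV3 TRBJ2-3: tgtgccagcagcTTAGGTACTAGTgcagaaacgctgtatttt
Clonotype 69, TRAV6N-7 TRAJ34: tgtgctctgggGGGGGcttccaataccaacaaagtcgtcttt
Clonotype 69, TRBV20 TRBJ1-3: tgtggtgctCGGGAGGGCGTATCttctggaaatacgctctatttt

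In RARα-TG, clonotypes 245 and 321 held 2 members each and no other cell. Clonotype 100, with 3 cells, held 1 member, 1 other Foxp3-negative cell and 1 cell of no CD4 class. A V gene name with a plus sign is a joint call in the deposited table.
Clonotype 245, TRAV4-3 TRAJ33: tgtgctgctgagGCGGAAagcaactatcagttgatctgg
Clonotype 245, TRBV19 TRBJ2-5: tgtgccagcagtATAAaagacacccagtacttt
Clonotype 321, TRAV8-1 TRAJ32: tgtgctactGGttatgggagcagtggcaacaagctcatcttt
Clonotype 321, TRBV12-2+TRBV13-2 TRBJ1-3: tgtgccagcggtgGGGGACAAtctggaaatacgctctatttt
Clonotype 100, TRAV7D-3 TRAJ15: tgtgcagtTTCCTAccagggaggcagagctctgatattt
Clonotype 100, TRBV12-2+TRBV13-2 TRBJ2-7: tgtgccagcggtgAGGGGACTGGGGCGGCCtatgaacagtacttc

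Most members were the lone cell of their clonotype. Of the 88 members with a genotype, which carried 84 clonotypes, 25 (28.4%, 19.3 to 39) belonged to a clonotype with 2 or more cells in the data. Among the other Foxp3-negative cells 144 of 259 did (55.6%, 49.3 to 61.7), and among the Foxp3-positive cells 157 of 334 did (47%). The intervals of the members and of the other cells did not overlap. These intervals treat cells as independent, although all cells of an expanded clonotype are counted together. The 259 other cells carried only 160 clonotypes, so their interval can be too narrow. The gap between the intervals is therefore a description and not a test. Clonotypes of 10 or more cells held 4.55% of the members and 20.8% of the other cells. By genotype, 9 of 23 WT members (39.1%, 19.7 to 61.5), 11 of 30 RARα-KO members (36.7%, 19.9 to 56.1) and 5 of 35 RARα-TG members (14.3%, 4.81 to 30.3) were in clonotypes of 2 or more cells, and these intervals overlapped. The other cells were at 49.2%, 67.7% and 38.8%, above the members of the same genotype each time.

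**Figure D1:**
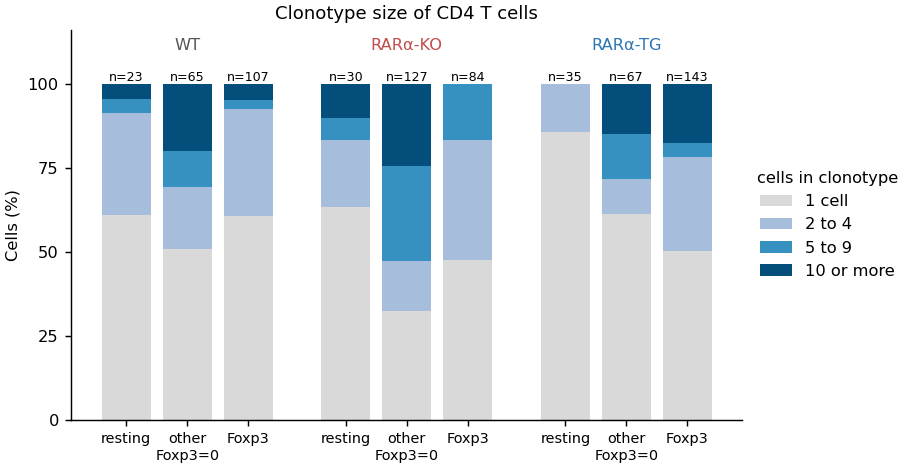
Share of cells (percent, stacked bars) by the number of cells in their clonotype, for the resting CD4 T cells, the other Foxp3-negative and the Foxp3-positive CD4 T cells of each genotype. Lone cells made up 60.9% of the WT, 63.3% of the RARα-KO and 85.7% of the RARα-TG members, and 50.8%, 32.3% and 61.2% of the other Foxp3-negative cells.

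Members shared clonotypes with other Foxp3-negative cells and with cells of no CD4 or CD8 class. Of the 84 member clonotypes, 13 also occurred among the other cells, which is 15.5% of the members' clonotypes and 8.12% of the 160 clonotypes of the other cells. By genotype, 5 of 22 WT clonotypes, 7 of 29 RARα-KO clonotypes and 1 of 33 RARα-TG clonotypes were shared. A total of 11 (13.1%, 6.72 to 22.2) also occurred among the cells of no class. None of the 84 occurred among the 257 clonotypes of Foxp3-positive cells (0 of 84, upper bound 4.3%) or among 561 CD8 clonotypes, and the other Foxp3-negative cells shared 9 of 160 clonotypes with Foxp3-positive cells (5.62%, 2.6 to 10.4). These intervals overlapped, and the WT other cells shared 0 of 43. Within the other cells, 12 shared clonotypes reached cells with 2 or more Tnfsf8 and Tnfsf11 UMIs (15.2% of the 79 clonotypes of those cells) and 7 reached cells with fewer (7.29% of 96).

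The β chains of the members used many V genes. TRBV19 was the most frequent, in 11 of 82 β-bearing member clonotypes (13.4%, 6.89 to 22.7), against 7 of 149 (4.7%) among the other Foxp3-negative cells and 12 of 231 (5.19%) among the Foxp3-positive cells. TRBV13-3 was in 9.76% of member clonotypes and 2.68% of the others, while TRBV3 was in 12.2% and 22.1%. These V genes were picked for their counts and were not tested. The TRBV19 chains are shown because they share a V gene across genotypes and yet differ in the junction. Of the 11, 4 were joined to TRBJ1-2, and their capitals differ in letters.
WT clonotype 1182, TRBV19 TRBJ1-2: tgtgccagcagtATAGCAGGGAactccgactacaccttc
WT clonotype 1183, TRBV19 TRBJ1-2: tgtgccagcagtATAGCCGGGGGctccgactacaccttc
RARα-TG clonotype 286, TRBV19 TRBJ1-2: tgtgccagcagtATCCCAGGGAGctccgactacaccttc
RARα-KO clonotype 306, TRBV19 TRBJ1-2: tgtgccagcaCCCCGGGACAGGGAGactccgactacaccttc

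The invariant chains of unconventional T cells that were looked for were not found. A TRAV11D TRAJ18 chain was not looked for. No member with a recovered α chain carried the TRAV11 TRAJ18 chain of invariant natural killer T cells or the TRAV1 TRAJ33 chain of mucosal-associated invariant T cells. Both chains were recovered in 72 of 88 members, the β chain alone in 14 and the α chain alone in 2, and the median β CDR3 length was 42 bases.

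The share of the resting cells was compared between the genotypes. Of the WT Foxp3-negative CD4 T cells, 23 of 88 were members (26.1%, 17.3 to 36.6). The RARα-KO tumor gave 30 of 157 (19.1%, 13.3 to 26.1), and the RARα-TG tumor gave 35 of 102 (34.3%, 25.2 to 44.4). RARα-TG was the highest and RARα-KO the lowest, and the intervals of neighbours in this order overlapped. Of all CD4 T cells they made up 11.8%, 12.4% and 14.3%. The parts of the rule differed: 38.6%, 31.8% and 38.2% of Foxp3-negative cells had a Tcf7 or S1pr1 UMI, and 63.6%, 63.1% and 75.5% had at most 1 UMI of Tnfsf8 and Tnfsf11. With each clonotype counted a single time, the share was 36.7% in WT (24.6 to 50.1) and 33% in RARα-KO (23.3 to 43.8). The RARα-TG share then stayed within its interval given above. Clonotypes of 2 or more cells held 49.2%, 67.7% and 38.8% of the other Foxp3-negative cells. The part of clone size in the order was not tested. The share can depend on depth, because a shallow cell may lack a UMI of a gene it expresses. When each cell was thinned to 1000 UMIs the shares were 5 of 52 for WT (9.62%), 13 of 89 for RARα-KO (14.6%) and 11 of 75 for RARα-TG (14.7%), and over 20 random draws the RARα-KO share was the lowest in only 6 and the RARα-TG share the highest in 13. The order of the 3 genotypes thus did not hold over the draws. The rule was applied anew to the thinned counts, so cells that lost their Foxp3 UMIs could enter the Foxp3-negative cells. Before thinning, the Foxp3-positive cells were 107 WT, 84 RARα-KO and 143 RARα-TG. The thinned shares therefore cover other sets of cells, and the part of depth in the order was not tested. Among CD8 T cells, 22.9%, 22.6% and 57.6% held a Tcf7 or S1pr1 UMI.

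**Figure D2:**
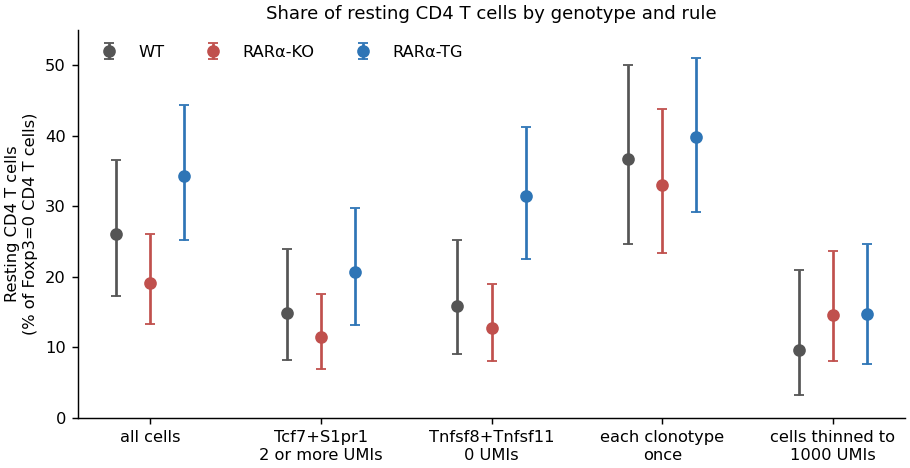
Resting cells as a percent of Foxp3-negative CD4 T cells in each genotype under 5 rules (all cells as reported, a stricter Tcf7 and S1pr1 minimum, no Tnfsf8 or Tnfsf11 UMI, each clonotype counted a single time, and cells thinned to 1000 UMIs), with 95% binomial intervals. RARα-TG is highest with all cells (34.3%), and after thinning RARα-KO (14.6%) and RARα-TG (14.7%) stand side by side. The thinned shares apply the rule to the thinned counts, so cells that lost their Foxp3 UMIs can enter.

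The depth behind these values was modest. The 90 members held 359027 gene UMIs, by genotype 95645, 144066 and 112184, with a median of 3359.5 UMIs and 1481 genes per cell and 1.03% mitochondrial UMIs. The other Foxp3-negative cells held 1450125 UMIs with a median of 4531.5 UMIs and 1845 genes. Members were thus shallower than the cells they are compared with. Levels are given as CPM, the counts of a gene per 1000000 gene UMIs summed over the cells of a group, and log2 ratios compare the CPM of the same gene in different groups. A gene listed at 0 in a group was set to 3 UMIs in that group, and its ratio is then written as at least or at most.

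The genes of the rule had the following levels. Tcf7 (ENSMUSG00000000782, GRCm38 chromosome 11, 52246527 to 52283383) was at 261, 278 and 357 CPM in the members. S1pr1 (ENSMUSG00000045092, chromosome 3, 115710433 to 115715055) was at 376, 305 and 330 CPM, and Cd4, the coreceptor, at 450, 486 and 383 CPM. The members were of different kinds in this respect, with 23 holding Tcf7 UMIs only, 39 S1pr1 UMIs only and 28 both. In total 105 Tcf7 UMIs lay in 51 cells (56.7%) and 124 S1pr1 UMIs in 67 cells (74.4%), so most members rest on 1 or a few molecules. In the other cells, Tcf7 was found in 30 and S1pr1 in 15, all with 2 or more Tnfsf8 and Tnfsf11 UMIs, as the rule requires. Members with exactly 1 Tcf7 or S1pr1 UMI (36 cells) had 113 CPM of Klf2 and 780 CPM of Ramp3, those with 2 or more (54 cells) had 345 and 617 CPM, and the 151 cells with none and the same low ligand count had 63.1 and 278 CPM. At the other edge, Klf2 was at 257 CPM in the 67 members with no Tnfsf8 or Tnfsf11 UMI, 228 CPM in the 23 members with 1 and 23.4 CPM in 10 cells just outside with 2. The 12 cells that held 1 Foxp3 UMI and otherwise met the rule had 216 CPM of Klf2 but 83 CPM of Ramp3.

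The label of resting cells was set beside marker genes. Il7r, the interleukin-7 receptor α chain that keeps naive and memory T cells alive (ENSMUSG00000003882, chromosome 15, 9506159 to 9529941), was at 544, 208 and 579 CPM in the members, against 288, 176 and 310 CPM in the other cells. Members were higher in each genotype, and the pooled log2 ratio was 0.86 (0.58 to 1.14). It was in 54 of 90 members (60%) and in 50.4% of the other cells. Myeloid barcodes could not serve as a background here, since 52.8% of them held Il7r and 50.4% held Klf2.

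Other markers of naive and central memory cells were sparse. Lef1, the partner factor of TCF-1, was in 30 members (33.3%) and 23.5% of the other cells, at 131 and 66.2 CPM (0.98, 0.45 to 1.5), against 1.42% of myeloid barcodes. Ccr7, the lymph node chemokine receptor, was in 19 members and went the other way. Its level was 188, 236 and 89.1 CPM in WT, RARα-KO and RARα-TG members and 804, 227 and 1255 CPM in the other cells, a ratio of −1.77 (−2.17 to −1.40). In RARα-KO the Ccr7 levels were alike (0.06), and against the other cells with low Tnfsf8 and Tnfsf11 the ratio was −0.47. The proliferation gene Mki67 was in 8 members, and granzyme B UMIs were found in some. The members thus had higher pooled levels of Klf2, Il7r and Lef1 than the other cells but were not uniformly naive or resting. KLF2 drives S1pr1, Lef1 is the partner of TCF-1 and Il7r is a marker of the label. Their levels therefore describe the members and do not test the label, and resting is used here as the name of the rule.

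Ramp3 and Tbc1d4 were far higher in the members than in Foxp3-positive cells, and differed less from the other Foxp3-negative cells. Ramp3, a single-pass protein that modifies the calcitonin and adrenomedullin receptors (ENSMUSG00000041046, chromosome 11, 6658506 to 6677478), was at 805, 458 and 829 CPM in WT, RARα-KO and RARα-TG members, against 670, 389 and 396 CPM in the other cells. The ratio was 0.58 (0.37 to 0.80) against all other cells, 1.30 against those with low and 0.12 against those with high Tnfsf8 and Tnfsf11, and 4.06 against Foxp3-positive cells, which had 41.2 CPM. Ramp3 was in 57 members (63.3%) and in 55.5% of the other cells, with 9.57% of myeloid barcodes at a median of 6680.5 UMIs. Tbc1d4, a Rab GTPase-activating protein that controls glucose transporter traffic (ENSMUSG00000033083, chromosome 14, 101442360 to 101609281), was at 62.7, 215 and 98.1 CPM in the members and 121, 115 and 23.6 CPM in the other cells. It was lower in WT members (−0.95) and higher in RARα-KO (0.91) and RARα-TG members (2.05). Its pooled ratio was 0.52 (0.02 to 1). It was 1.32 against the other cells with low Tnfsf8 and Tnfsf11 (54.7 CPM), 0.02 against those with high, and 5.57 against Foxp3-positive cells (2.87 CPM).

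The members were then compared with the other Foxp3-negative cells across all genes. Of 6123 genes with a mean of 0.1 or more UMIs per cell in either group, 347 (5.67%) were 2-fold or more higher in the members and 511 (8.35%) 2-fold or more lower, and the median gene was at −0.012. The side was the same in all 3 genotypes for 1080 genes that were higher (17.6%) and 1086 that were lower (17.7%). Against only the other cells with at most 1 UMI of Tnfsf8 and Tnfsf11, 342 of 5947 genes (5.75%) were higher and 546 (9.18%) lower by that fold. With every cell thinned to 1000 UMIs, Klf2 was at 1.83, Cxcr3 at 1.75, Socs3 at 2.13, Csf2 at −2.02 and Gzme at −3.01, on the same side as with all UMIs. The genes named next are the 14 with the highest and the 14 with the lowest ratios under a fixed ranking, on the same side in all 3 genotypes. A gene could pass the filter through 1 group alone, which favours a ratio toward that group.

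The transcription factors Klf2 and Klf3 and the chemokine receptor Cxcr3 were among the highest. Klf2 (ENSMUSG00000055148, chromosome 8, 72319062 to 72321654) was at 272, 118 and 392 CPM in WT, RARα-KO and RARα-TG members, against 63.7, 50.4 and 20.7 CPM in the other cells. Klf2 had a pooled ratio of 2.34 (1.87 to 2.81). It was in 36 members (40%) and 14.3% of the other cells. Klf3, a repressor of the same family, was at 125, 118 and 250 CPM against 72.8, 30.8 and 32.5 CPM (1.94, 1.41 to 2.48). Cxcr3, the receptor for interferon-induced chemokines that brings type 1 T cells to inflamed tissue (ENSMUSG00000050232, chromosome X, 101731535 to 101734147), was at 115, 215 and 169 CPM against 36.4, 70 and 11.8 CPM (1.97, 1.45 to 2.49). It was in 37 members (41.1%), in 16.9% of the other cells and in 2.13% of myeloid barcodes.

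Cytokine and calcium signalling genes stood beside them. Socs3, an inhibitor of JAK and STAT signalling downstream of interleukin-6, was at 220, 229 and 241 CPM in the members and 45.5, 78.4 and 47.3 CPM in the other cells (1.85, 1.41 to 2.29). Il6ra, the interleukin-6 receptor α chain, was at 52.3, 34.7 and 44.6 CPM against 12.1, 1.4 and 5.91 CPM (3.11, 1.73 to 4.65). Saraf, which limits store-operated calcium entry, was at 606, 514 and 811 CPM against 167, 190 and 233 CPM (1.69, 1.43 to 1.94). For each of these genes the lowest genotype of the members lay above the highest of the other cells. The ranking favoured this pattern, and its share over all genes was not counted.

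The remaining genes of the upper list were lower in count. They were Rasgrp2, an activator of Rap1 needed for integrin function (69.6 and 13.1 CPM, 2.41), Trib2, a pseudokinase (55.7 and 8.28 CPM, 2.75), Cdc25b, a cell cycle phosphatase (94.7 and 16.6 CPM, 2.52), Cmah, which makes a sialic acid (52.9 and 8.96 CPM, 2.56), Klhl6 (80.8 and 19.3 CPM, 2.06), Rundc3b (69.6 and 11 CPM, 2.66) and Tdrp (41.8 and 2.07 CPM, 4.34, 2.51 to 6.77). Tdrp rested on 15 UMIs in the members and 3 in the other cells. The replication-dependent histone Hist1h1b (2.15) owed 15 of its 23 UMIs to 2 WT members.

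Among the lowest genes were cytokines, a cytokine receptor, chemokines and granzymes. Csf2, the cytokine GM-CSF (ENSMUSG00000018916, chromosome 11, 54247270 to 54249899), had 0, 1 and 7 UMIs in WT, RARα-KO and RARα-TG members, in 2 cells, and 269 UMIs in the other cells, in 29 cells (22.3 and 186 CPM, −3.06). Csf1, the cytokine M-CSF, was at 39 and 243 CPM (−2.64). Il1r2, the decoy interleukin-1 receptor, was at 105, 90.2 and 17.8 CPM in the members and 740, 435 and 609 CPM in the other cells (−3.00, −3.64 to −2.43), in 10 and 118 cells. For Il1r2 every genotype of the members lay below every genotype of the other cells, a pattern that the ranking favoured too.

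Penk, which encodes the opioid precursor proenkephalin, had 4 UMIs in the members and 886 in 34 of the other cells (−5.78). Serpine2, a protease inhibitor, had 7 against 578 UMIs (−4.35), Igfbp7, a secreted IGF-binding protein, 3 against 226 UMIs (−4.22) and Ccdc184 0 against 127 UMIs (at most −3.39). These genes were spread over 34 to 54 of the other cells each.

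For the granzymes and chemokines, single cells weighed heavily. Gzme had 1 UMI in the members and 590 in 26 other cells (−7.19), and Gzmc 1 against 412, of which 157 came from 1 cell (−6.67). Reads of the closely related granzyme genes may be split between copies, so their separate counts are uncertain. Ccl1 had 1 against 475 UMIs, 300 of them in 1 cell (−6.88), Ccl4 8 against 473, with 268 in 1 cell (−3.87), Ccl3 5 against 242 (−3.58) and Cd74, the invariant chain of MHC class II, 16 against 638, with 299 in 1 cell (−3.30). Ifitm1 (−2.81) had 36 UMIs in the members, all of them in 3 WT cells.

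**Figure D3:**
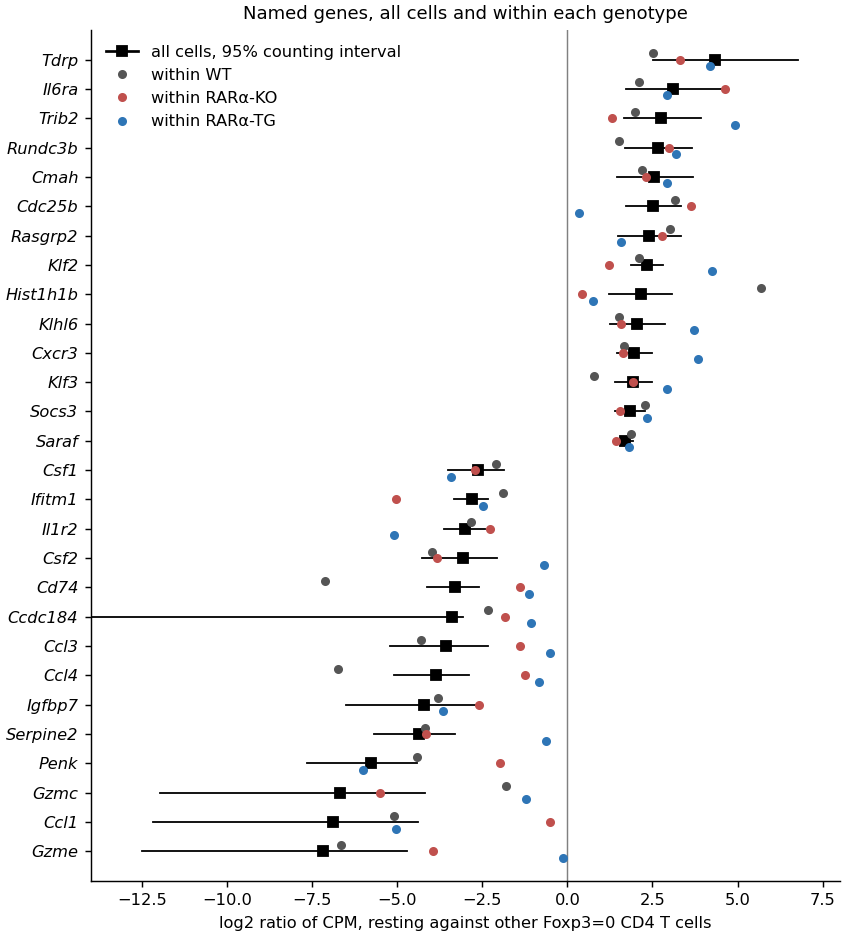
Log2 ratio of CPM, resting against other Foxp3-negative CD4 T cells, for the 28 named genes. Black squares with bars are the pooled ratio with its 95% counting interval, coloured points are the ratio within each genotype, and the value of Ccdc184 is a bound. Klf2 (2.34) and Cxcr3 (1.97) lie to the right of 0 and Gzme (−7.19) and Csf2 (−3.06) to the left.

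Because these cells were chosen for Tcf7 and S1pr1, the comparison with the other Foxp3-negative cells is a description of the members and not a test of them. The gene lists described next were chosen with earlier results of these data known, and each count covers the genes of a list that passed the filter on low values. Among 19 naive and central memory genes tested of 22 listed, the median ratio was 0.99, against −0.012 over all genes. At 2-fold or more, 9 were higher and 1 lower, and 11 were higher and 1 lower in all 3 genotypes. These counts lean toward the members, because some genes passed the filter only through them. Among these were Igfbp4 (12 UMIs in the members, 11 of them in 1 cell, and 1 in the other cells), Il6ra (15 and 7) and Ly6c1 (11 and 8). Beside Klf2, Il7r and Lef1, the list held Foxp1, a factor that keeps T cells quiescent (1.42), and Bach2, a repressor of effector genes (0.80). It also held Slamf6, a receptor of stem-like T cells (0.99), Actn1 (1.91) and Ly6c1 (2.47, with 8 of its 11 member UMIs in 1 cell). Foxo1, the factor upstream of Klf2 (0.47), and Cd27 (0.32) were close to the other cells, and Satb1 (−0.14), Txnip (−0.24) and Bcl2 (−0.35) were slightly lower. Against the other cells with low Tnfsf8 and Tnfsf11 the median of the list was 1.13.

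Glycolysis genes were lower as a group. Of 13 tested, the median was −0.82, 12 were lower in all 3 genotypes and 4 were 2-fold or more lower. Examples were Slc2a3, a glucose transporter (−2.23), Tpi1 (−1.37), Pgk1 (−1.23), Eno1 (−1.05), Pkm (−0.96) and Gapdh (4910 and 8666 CPM, −0.82). Ldha, lactate dehydrogenase, was at −0.53.

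Genes of regulatory T cells and inhibitory receptors were mostly lower. Of 13 genes of regulatory T cells tested without Foxp3, none was 2-fold higher, 5 were 2-fold or more lower and 8 were lower in all 3 genotypes, with a median of −0.78. They included Il2ra, the interleukin-2 receptor α chain (106 and 261 CPM, −1.30), Tnfrsf4, the costimulatory receptor OX40 (702 and 1681 CPM, −1.26), Tnfrsf9, the receptor 4-1BB (−1.48), Areg, the growth factor amphiregulin (−2.26), Lrrc32 (−2.94) and Ctla4 (−0.63). All 7 inhibitory receptors tested had ratios below 0, with a median of −0.40, led by Lag3 (−1.49) and Havcr2 (−1.06), while Pdcd1 was at −0.39 and Tigit at −0.25. Of 12 genes of antigen receptor signalling, 1 was higher and 3 lower at 2-fold, with a median of −0.16, Irf4 at −1.70 and Nr4a1 at 0.69. Against the other cells with low Tnfsf8 and Tnfsf11 the median of that list was 0.13, on the other side of 0. Of 12 costimulatory and TNF family genes, 4 were lower at 2-fold, among them Cd226 (−2.34), and Cd28 was at 0.48.

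Genes of helper lineages differed in no common direction. Of 12 type 1 genes, the factor Tbx21 was lower (−1.32), as were the tissue residence receptor Cxcr6 (−1.05) and Il12rb2 (−1.06), while Cxcr3 and the chemokine Ccl5 (0.65) were higher, with a list median of −0.55. Of 6 type 2 genes the chemokine receptor Ccr4 was higher (1.91) and Ccr8 lower (−1.42), with no Il5 or Il13 UMI in the members. Of 3 type 17 genes tested of 10 listed, Tmem176a (1.47) and Tmem176b (1.72) were higher and Rora was at −0.07. Follicular genes had a median of 0.05 over 7 tested, with Icos at 1161 and 1123 CPM.

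Cytotoxic genes had a median of −0.76 over 11 tested, of which 5 were lower and 1 higher at 2-fold. Gzmk, a granzyme of memory cells, was the higher gene, at 162 and 11 CPM (3.87, 3.05 to 4.77), with 58 UMIs in 15 members. Gzmb was at 0.19, with 201 of its 395 member UMIs in 1 cell, and the receptor chain Klrd1 at −1.21.

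Trafficking genes had a median of 0.14 over 18 tested. Cxcr4, the receptor for CXCL12, was higher (1.14), and the integrin chains Itgb1 (0.68) and Itgb7 (0.62) and the sphingosine 1-phosphate receptor S1pr4 (0.61) were above 0. Of 15 cytokine receptor genes, Ifngr2 was at 2.01, Il4ra at 0.70 and Il2rg, the common γ chain, at −0.55. Of 12 interferon-induced genes, 2 were higher and none lower at 2-fold, with Rsad2 at 3.15, Irf7 at 1.06 and Isg15 at 0.66 and a median of 0.65. Of 8 TGF-β genes, Smad3, a mediator of that pathway, was at 1.65, and the median was 0.33.

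**Figure D4:**
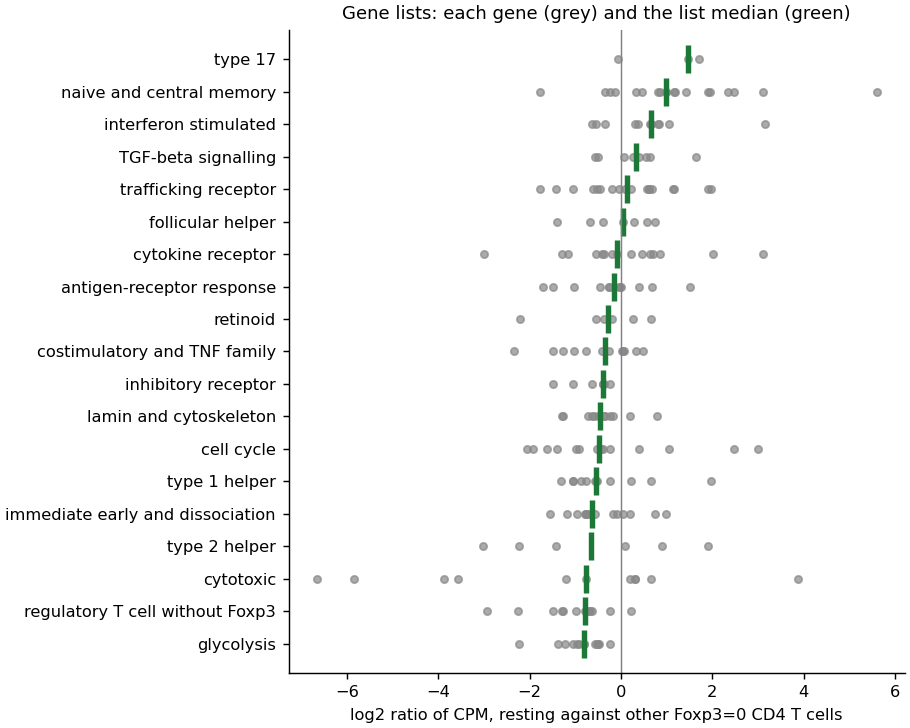
Log2 ratio of CPM, resting against other Foxp3-negative CD4 T cells, for each tested gene of 19 lists (grey points) and the median of each list (green). The naive and central memory list is centred at 0.99, the glycolysis list at −0.82 and the regulatory list at −0.78.

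Genes that mark handling of the tissue and of the nuclear envelope also differed, and cell cycle genes were uneven. Of 14 dissociation response genes, the median was −0.63, with Hspa1b at −1.55, Ier2 at 0.99 and Btg2 at 0.74. Of 12 genes linked to lamins and cell stiffness, 9 were lower in all 3 genotypes, with a median of −0.45 (Anxa2 −1.29, Lgals3 −1.28, Lmna −0.72, Lmnb1 0.79). Of 14 cell cycle genes, 3 were higher and 4 lower at 2-fold, and 1 member held 31.1% of all cell cycle UMIs of the members. The part of tissue handling in the other differences was not tested.

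Retinoid genes were few above the filter. The retinoid list had a median of −0.28 over 6 genes tested of 15 listed. Rara, the receptor the genotypes target (ENSMUSG00000037992, chromosome 11, 98927800 to 98974942), was at 62.7 CPM in the WT members (6 UMIs, 23 to 137). RARα-KO members had 34.7 CPM (5 UMIs, 11.3 to 81), and RARα-TG members had 178 CPM (20 UMIs, 109 to 275). RARα-TG was above WT by 1.51 (0.14 to 3.11), and RARα-KO differed from WT by −0.85 (−2.90 to 1.12), which includes 0. In the other cells the levels were 81.9, 53.2 and 263 CPM, and in the Foxp3-positive cells 95.3, 99.5 and 331 CPM. The RARα-KO T cells still make a Rara transcript that lacks an inner exon, so the counts do not check that label. Crabp2, a retinoic acid carrier, had no UMI in the members (at most −2.21).

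Markers of myeloid, dendritic, stromal and natural killer cells were close to 0 in the members. Of the myeloid list they held 7 UMIs in 6 cells (19.5 CPM), with Lyz2, Csf1r, C1qa and Fcgr1 at 0, against 134 CPM in the other cells and 11291 CPM in myeloid barcodes. Of the dendritic cell list they held 2 UMIs, against 135 CPM in the other cells, where 134 of 196 UMIs lay in 1 cell. The B cell list was at 61.3 CPM in the members and 35.2 CPM in the other cells, with Cd79a and Ms4a1 at 0 in the members. The MC38 and stromal list gave 4 UMIs, the natural killer list 7 UMIs, all of Eomes, and the γδ list 6 UMIs, while the T cell list gave 5791 CPM with a UMI in all 90 members. Lists of unconventional T cells, which share genes with conventional ones, gave more UMIs. The invariant natural killer T cell list had 74 UMIs in 42 members (206 CPM), against 123 CPM in the other cells, with Klrb1c at 0 in the members. Its median ratio was 1.10 over 2 genes tested. The list of mucosal-associated invariant T cells was at 69.6 CPM in 19 members and 79.3 CPM in the other cells. No member with a recovered α chain carried the TRAV11 TRAJ18 or the TRAV1 TRAJ33 chain.

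Next, members were set beside other resting T cells. Against 471 CD8 T cells with Tcf7 or S1pr1 UMIs under the same ligand limit, the quiescence genes differed by small ratios, with Klf2 at −0.42, Il7r at 0.48, Ccr7 at −0.22 and Cxcr6 at −0.10. What set the CD4 cells apart was Ramp3 at 685 and 58.6 CPM (3.55, 3.26 to 3.84), Tbc1d4 (2.41), Il6ra (3.06), Socs3 (1.65), Trib2 (4.48), Cd40lg, the helper ligand CD40L (5.13) and Izumo1r, the folate receptor 4 (4.82). The CD8 cells were higher in Ly6c2 (−4.42), Ccl5 (−2.71), Nkg7 (−1.57) and Gzmk (−1). Against Foxp3-positive cells, Klf2 was at −0.51 and Il7r at 0.03, so these genes did not separate the members from them, and Cxcr3 was at 0.89.

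**Figure D5:**
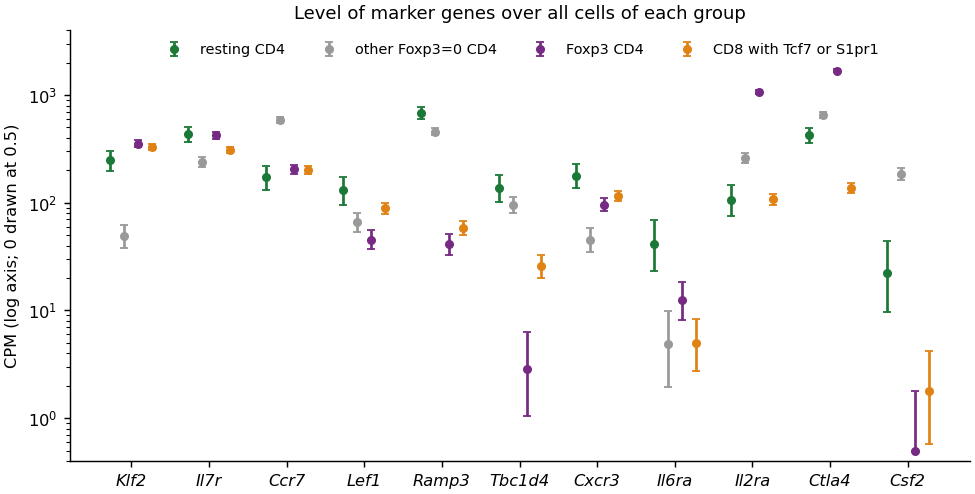
CPM (log axis, with 0 drawn at 0.5) of 11 marker genes in resting CD4, other Foxp3-negative CD4, Foxp3-positive CD4 and CD8 T cells with Tcf7 or S1pr1. Klf2 is at 248 CPM in the members and 49 CPM in the other Foxp3-negative cells, and Ramp3 is at 685 CPM in the members and 41.2 CPM in the Foxp3-positive cells.

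The members varied among themselves along clone size. The 63 members alone in their clonotype had 307 CPM of Klf2, and the 25 in larger clonotypes 122 CPM (1.33). Il7r (1.16), Klf3 (1.78), Ccr7 (1.70) and S1pr1 (1.06) were higher in the lone cells, as was Gzmb (2.57, with 201 of its 357 UMIs in 1 cell), while Lef1 was at −0.66 (−1.58 to 0.28). Cxcr6 (−1.29), Ccl5 (−1.04), Cxcr3 (−0.82) and Gapdh (−0.95) were higher in the expanded cells. Summed over lists, the naive and central memory genes were at 2761 CPM in the lone cells and 1610 CPM in the others, and the glycolysis genes at 8275 and 14048 CPM. The lone cells were 14 WT, 19 RARα-KO and 30 RARα-TG, and the expanded cells 9, 11 and 5. The part of genotype in these ratios was not tested.

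Members and their clonal relatives outside the rule could be compared directly. In the 13 shared clonotypes, 14 members stood beside 60 relatives among the other Foxp3-negative cells. Cxcr3 was higher in the members (2.66, 1.57 to 3.78), as was Izumo1r (2.30), and Csf2 was lower, with 0 UMIs against 159 (at most −3.43), as was Ccl5 (−3.10). Klf2 (0.30, −2.16 to 2.19), Il7r (−0.23) and Gapdh (−0.00) were not separable from the relatives, and Ramp3 was at −0.72.

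By which of the genes they held, the members also differed. Cells with Tcf7 only, S1pr1 only and both had 7258, 13803 and 6645 CPM over the glycolysis list, and 2238, 3971 and 1731 CPM over the regulatory list. The naive and central memory list was nearly even, at 2289, 2146 and 2227 CPM, and every member held at least 1 UMI of it, with a median of 7.5. Cytotoxic genes were at 1315, 4947 and 3018 CPM, with UMIs in 66 members, and a single member held 18.5% of them.

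Finally, the members were compared between genotypes, where the groups of 23, 30 and 35 cells hold few molecules and the contrasts of RARα-KO and RARα-TG share the WT cells. Of 5407 genes tested, 681 (12.6%) were 2-fold or more higher and 806 (14.9%) lower in RARα-KO than in WT members. Of 5075 tested, 680 (13.4%) were higher and 779 (15.3%) lower in RARα-TG.

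In RARα-KO, Ly6a, the surface protein Sca-1, was at 910, 2291 and 1275 CPM in WT, RARα-KO and RARα-TG members (1.33 over WT, 0.99 to 1.69), against 0.38 for the same contrast in the other cells. Tnfrsf4 was at 408, 1187 and 348 CPM (1.54, 1.03 to 2.08), against −0.04 in the other cells. Ctla2a, a cathepsin inhibitor, was at 230, 715 and 472 CPM (1.64) and differed by the same amount in the other cells (1.64). RARα-KO members thus stood above both other genotypes for these genes.

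Some RARα-KO values came from single cells. Ifng was at 41.8, 423 and 8.91 CPM (3.34, 1.91 to 5.26), but 52 of 61 RARα-KO UMIs lay in 1 cell, and all 61 Xcl1 UMIs lay in 1 cell. Gzmb was at 680, 1645 and 749 CPM (1.28), with 201 of 237 RARα-KO UMIs in 1 cell, and with the cell holding most UMIs left out of each group the ratio was −0.63.

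Lower in RARα-KO members were the following genes. Ccl5 was at 2457, 437 and 1016 CPM (−2.49), with its UMIs in 7 WT and 7 RARα-KO cells, and Ccr4 at 199, 13.9 and 160 CPM (−3.84). Il7r was lower than in WT by a ratio of −1.38 (−2.08 to −0.71), with −0.71 in the other cells, and Klf2 by −1.20 (−2.18 to −0.27), with −0.34 in the other cells. Ramp3 (−0.81) and Cdc25b (−1.44) were lower as well, whereas Tbc1d4 was higher (1.78). Tuba1b, a tubulin, was at 335, 41.6 and 80.2 CPM (−3.01), with 22 of 32 WT UMIs in 1 cell. Cell cycle genes had a median of −2.29 in RARα-KO and −2.10 in RARα-TG against WT, and for Ube2c 24 of 36 WT UMIs lay in 1 cell. Both medians use the same 23 WT members. Over the members of all genotypes, 1 cell held 31.1% of the cell cycle UMIs, so few cells can weigh heavily on these medians.

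In RARα-TG, several heat shock genes were higher than in WT. Hsph1, a chaperone of the Hsp110 family, was at 105, 180 and 633 CPM (2.60, 1.64 to 3.72), and Hsp90ab1 at 2007, 3172 and 4805 CPM (1.26, 1.02 to 1.5). Hspa1a was at 0, 69.4 and 490 CPM (at least 3.97), with 28 of 55 RARα-TG UMIs in 1 cell, and Hspa1b at 0, 153 and 383 CPM (at least 3.61). The last pair are near-identical copies whose separate counts are uncertain. The same contrast in the other cells was 1.52 for Hsph1, 0.79 for Hsp90ab1, 1.52 for Hspa1a and 1.97 for Hspa1b, so RARα-TG was above WT there too. The part of tissue handling in this was not tested.

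Crip1, a LIM domain protein, was at 1035, 1596 and 3049 CPM (1.56, 1.23 to 1.90) in WT, RARα-KO and RARα-TG members, with −0.10 in the other cells. Rflnb, a filamin regulator, was at 0, 34.7 and 169 CPM (at least 2.43). On the lower side, Lag3 was at 146, 264 and 0 CPM (at most −2.45, with −0.60 in the other cells), with 13 of its 14 WT UMIs in 1 cell, and Rilpl2 at 209, 160 and 8.91 CPM (−4.55, with −0.15 in the other cells). The differences between these paired ratios were not tested.

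Over the lists, the naive and central memory genes were near their WT level in both other genotypes, while several lists lay on opposite sides of it. The naive and central memory list had a median of −0.18 in RARα-KO and 0.18 in RARα-TG against WT, and the glycolysis list 0.32 and −0.64. The inhibitory list was at 0.62 and −0.80, the interferon list at 0.42 and −0.47 and the cytotoxic list at −0.72 and −1.36. Single inhibitory genes did not all follow their median in RARα-KO. Ctla4 was below WT in RARα-KO and RARα-TG (−1.20 and −0.80), as was Havcr2 (−1.59 and −2.45). Lag3 (0.85, −0.07 to 1.85), Pdcd1 (0.18, −0.36 to 0.73) and Entpd1 (1.22, −1.18 to 4.52) were above WT in RARα-KO, with intervals that reached below it. Over all genes the medians were 0.019 and −0.008.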

How the data were processed

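Tumor cells of 3 genotypes were pooled by hashtag into 1 5′ gene expression library and 1 receptor library. The deposited values are UMI counts per gene, hashtag and barcode, not normalized, made by the authors with Cell Ranger 6.1.0 on mm10 (GRCm38) per the labels; the matrix header names another major version of that program. Barcodes were kept at 500 or more gene UMIs with a clonotype, and a genotype was given by a hashtag with 10 or more UMIs and 3 times the next. No doublet caller was run, and barcodes with no clear hashtag were left out of genotype values. Counts were summed per group, with no normalization beyond the group total. Each genotype is 1 sample, so no test was run and n is 1, and cells were not used as replicates. Python 3.11.15, numpy 2.4.6, scipy 1.17.1 and pandas 2.3.3 were used, and the interval code was tested on simulated data. Of 7402 barcodes with a receptor contig, 4784 had 500 or more gene UMIs, and 3702 of these carried a clonotype.

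The members, lists and rules were chosen with earlier results of these data known. Named genes were the rule's genes and the markers; the 14 highest and 14 lowest by the interval bound nearer to 0, among genes with a mean of 0.1 or more UMIs per cell and 1 side in all 3 genotypes, without receptor and immunoglobulin segments, mitochondrial, ribosomal protein and unnamed genes; 8 in each direction for each genotype contrast; up to 4 per list; Rara; and the 3 clonotypes with most members in each genotype. Ties between clonotypes were broken by their number of cells. Gene positions came from RefSeq (GRCm38.p6), matched by symbol for 240 of 241 named genes. Some genes are not reported here.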

Additional observations from a re-analysis of the deposited data

Results flagged for a closer look

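Among 127 comparisons looked at, 4 went opposite ways in different cells or genotypes, and none of these differences was tested. The median of the type 17 list in resting against other Foxp3-negative cells was 1.32 within RARα-KO and −0.55 within RARα-TG. For RARα-KO against WT, Ccl5 was at −2.49 in the resting cells and 0.24 in the other Foxp3-negative cells. Under the same contrast Ifng was at 3.34 in the resting and −2.28 in the other cells, and 52 of the 61 RARα-KO UMIs of the resting cells lay in 1 cell. For RARα-TG against WT, Rgs16, a regulator of G protein signalling, was at −2.23 at most in the resting cells and 0.50 in the other cells, where 11 of 12 UMIs of the WT resting cells lay in 1 cell.

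The receptor library also held 1643 barcodes with a productive β chain that no comparison used. Of 83 β chains of resting cells, 13 (15.7%) occurred again among them, against 50 of 156 (32.1%) for the other Foxp3-negative cells and 74 of 250 (29.6%) for the Foxp3-positive cells.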

How the results depend on the processing

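No paired analysis was possible because each genotype is 1 sample and no test was run. All values rest on 90 cells, and a gene with few UMIs can turn on 1 cell. The share of members in clonotypes of 2 or more cells stayed within its interval under all 18 alternative values. For resting against other Foxp3-negative cells there were 366 alternative values, of single genes and of the counts of genes past 2-fold. Of these, 268 stayed the same, 97 moved and 1 reversed. A gene stayed the same within its interval, and a count within a set fold of the main count. With cells thinned to 1000 UMIs, 183 genes were higher and 172 lower in resting against other cells, the type 17 median was −0.14 and the glycolysis median −1.12, and 300 and 264 genes passed for RARα-KO, with Gzmb at −0.05, and 336 and 327 for RARα-TG against WT. With 2 or more Tcf7 and S1pr1 UMIs, 529 genes were higher, the glycolysis median was −1.52, the RARα-KO antigen receptor median was −0.27 and its Gzmb −0.65, and the RARα-TG glycolysis median was 0.25. A filter of 0.2 UMIs per cell left 159 higher and 261 lower, and 377 higher in RARα-TG, and a minimum of 4 UMIs gave 837 and 987. Within WT, 834 and 991 genes passed, with medians of −1.20 for type 1, 0.68 for type 2 and −0.52 for glycolysis and Tbc1d4 at −0.95. Within RARα-KO 775 were higher and glycolysis was at −0.71, and within RARα-TG 718 and 991 passed and type 17 was at −0.55. Alternatives chosen after seeing the data were the comparison with low Tnfsf8 and Tnfsf11 cells (type 2 at 0.18, glycolysis at −1), with high ones (glycolysis at −0.75), and leaving out the cell with most UMIs of each gene in each group (496 lower in RARα-KO and 464 in RARα-TG, RARα-KO antigen receptor at −0.01, Gzmb at −0.63). With clonotypes weighted equally, type 2 was at 0.10 and 5 lists in place of 12 stood above the all-gene median in RARα-TG. Without barcodes with a second β chain or other lineage UMIs, type 2 was at 0.05. The shares in WT, RARα-KO and RARα-TG were 14.8%, 11.5% and 20.6% with 2 or more Tcf7 and S1pr1 UMIs. They were 15.9% in WT and 12.7% in RARα-KO with no Tnfsf8 or Tnfsf11 UMI. With the rule applied to thinned counts, and thus to other sets of cells, they were 9.62% in WT and 14.7% in RARα-TG. With each clonotype counted a single time they were 36.7% in WT and 33% in RARα-KO, and RARα-TG stayed within its interval. The cause was not tested, beyond the fewer genes or cells that an alternative leaves.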
